A study of Mus musculus with 27 samples.

Results

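The Usp17l family is a group of near-identical mouse genes for ubiquitin-specific proteases, known under the older names Dub1, Dub1a, Dub2, Dub2a and Dub3. Its 5 members here were Usp17la, Usp17lb, Usp17lc, Usp17ld and Usp17le, chosen by symbol out of 20847 distinct gene rows over 4 deposited count tables. They were chosen with their levels in the stem cell knockouts already known, so those levels are described below without a test. All 5 had a row in the tables of stem cells, germinal vesicle (GV) oocytes and post-GV oocytes, and 0 had a row in the table of round spermatids, which holds 17715 rows. Because the copies share much of their sequence, the summed count of the family was used beside each member.

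Deubiquitinases of the USP class are cysteine proteases that take ubiquitin off other proteins, which can spare a target from the proteasome or change a chromatin mark. The first Usp17l genes were found in mouse blood cells as transcripts that rise early after cytokine stimulation. In the mouse embryo, Usp17l transcripts are known from the 2-cell stage, and in cultured embryonic stem cells from the rare cells that pass through a state resembling it, along with Zscan4, Tcstv and Zfp352. The study removed parts of the N6-methyladenosine (m6A) pathway: Mettl3 is the catalytic subunit of the enzyme that writes this mark on mRNA, and Ythdf1, Ythdf2 and Ythdf3 are cytoplasmic proteins that bind it.

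The stem cells were mouse embryonic stem cells of the KH2 line (C57BL/6 x 129/Sv), grown in serum with LIF and profiled by poly(A) RNA-seq with ScriptSeq v2. Their 6 genotypes, with 2 libraries (A and B) each, were wild type, Ythdf1-/-, Ythdf2-/-, Ythdf3-/-, the triple knockout Ythdf1-/-Ythdf2-/-Ythdf3-/-, and Mettl3-/-. The labels do not say whether A and B were separate cultures or clones. GV oocytes, fully grown and arrested before the first meiotic division, came from 3 Mettl3f/f Zp3-Cre+ and 4 Mettl3f/f Zp3-Cre- samples (BDF1 X C57BL/6 X Jax#003651), each a pool of oocytes profiled by SMART-seq2. Both GV groups carried floxed Mettl3, and the Zp3 promoter that drove Cre is active in growing oocytes, so the deletion was conditional on that cell type. Post-GV oocytes (CB6F1 X C57BL/6, SMART-seq2) were 2 Ythdf2-/- libraries against 3 heterozygous Ythdf2+/- controls. Sorted round spermatids, the haploid cells of spermatogenesis, were 2 Ythdf2-/- libraries against 1 Ythdf2+/+ library, profiled after ribosomal RNA depletion.

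The stem cell libraries were the shallowest, with totals of 612598 to 1111764 counts. GV oocyte libraries held 6484397 to 18181397, post-GV libraries 12409822 to 25015081, and spermatid libraries 18843689 to 32759740 counts. Levels are given as CPM, counts scaled to a common library size after TMM normalisation. The 2 libraries of each stem cell genotype differed by no more than counting noise: the mean chi-square per gene was 0.675 to 0.833 over the 6 pairs, against 0.842 to 4.172 over the 60 pairs across genotypes. Adjusted p-values in stem cells therefore measure only the spread between these libraries, which may be technical. Mettl3 RNA was 18.1 and 15.2 CPM in the Mettl3-/- stem cells against 141 and 137 CPM in wild type. The RNA did not separate the other labels in the same way: Ythdf1 was at 174 and 177 CPM in the libraries labelled Ythdf1-/- and at 179 and 173 CPM in wild type, and in the libraries labelled Ythdf3-/- and triple knockout the log2 change of the targeted genes lay between -0.13 and 0.36. Ythdf2 was at 18.1 and 10.5 CPM in the libraries labelled Ythdf2-/- against 26.1 and 25 CPM, a log2 change of -0.85 ± 0.29 (SE) that did not pass (edgeR adjusted p = 0.216). Gene-level counts do not show whether a transcript still encodes protein, so each Ythdf genotype below is used as labelled.

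All 5 genes lie on chromosome 7 of GRCm38 (mm10) within 1613 kb, by the GENCODE M21 annotation. Usp17ld spans positions 103249737 to 103252505 on the minus strand, with 1987 exonic bases. Usp17lc spans 103415072 to 103419880 on the plus strand, with 2453 exonic bases. Usp17le spans 104768049 to 104777470 on the minus strand and Usp17lb 104840257 to 104842603 on the minus strand, with 1987 and 1561 exonic bases. Usp17la spans 104857009 to 104862667 on the plus strand, with 2656 exonic bases. Between the outermost members lie 81 other coding genes, of which 61 are olfactory receptors (Olfr).

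The coding sequences were 89.4% identical at the lowest (Usp17lb and Usp17lc) and 98.4% at the highest (Usp17lc and Usp17ld, 1609 of 1635 bases). Of all 50-base windows along the transcripts, 15.3% of those in Usp17la, 20.1% in Usp17lb, 24.4% in Usp17le, 44.5% in Usp17lc and 50.4% in Usp17ld also occurred in another member. A read from such a window cannot be assigned to 1 gene, so the split between members is uncertain, most of all between Usp17lc and Usp17ld. The family sum is also affected where reads with several matches were dropped, and the sources used here do not say how the submitters' counting treated them.

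The members share sequence around their annotated RefSeq starts as well, and these stretches are shown because the members moved together in the stem cells. RefSeq promoter windows on GRCm38.p6 held entries for 4 of the 5 members, Usp17la, Usp17lb, Usp17lc and Usp17ld. A 118-base stretch that starts with the same 21 bases was found in each, at chr7:104856883-104857000 (plus strand, Usp17la), chr7:104842584-104842701 (minus strand, Usp17lb), chr7:103416521-103416638 (plus strand, Usp17lc) and chr7:103252585-103252702 (minus strand, Usp17ld). Each is printed 5′ to 3′ on the gene's strand, with a TATA-like word in capitals (TATAAA, or TTTAAA in Usp17la) that was picked out after the sequences were viewed.
Usp17la: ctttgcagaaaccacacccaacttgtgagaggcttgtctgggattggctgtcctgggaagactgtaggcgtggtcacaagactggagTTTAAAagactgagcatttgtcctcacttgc
Usp17lb: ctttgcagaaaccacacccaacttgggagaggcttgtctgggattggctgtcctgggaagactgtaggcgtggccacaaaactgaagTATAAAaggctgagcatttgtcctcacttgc
Usp17lc: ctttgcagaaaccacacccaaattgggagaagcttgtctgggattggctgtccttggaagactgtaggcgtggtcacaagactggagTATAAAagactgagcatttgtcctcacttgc
Usp17ld: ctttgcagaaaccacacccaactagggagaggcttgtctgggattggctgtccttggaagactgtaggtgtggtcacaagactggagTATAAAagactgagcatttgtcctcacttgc

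The 4 stretches were 94.1% to 96.6% identical, with 4 to 7 differing bases between any pair. Their last base lay 15, 0, 57 and 79 bases before the RefSeq start of Usp17la, Usp17lb, Usp17lc and Usp17ld. The GENCODE spans given above start elsewhere for 3 of these genes. Against them, the stretch lay 8 bases before the start of Usp17la and 79 before that of Usp17ld, and its last 20 bases lay in the first exon of Usp17lb. The stretch of Usp17lc began 1449 bases inside the GENCODE gene and held 0 exonic bases, so it is intronic there. The shared first 21 bases occurred in 4 of 32851 RefSeq promoter windows of 300 bases, all 4 of them from this family. On either strand of its 300-base window, TATAAA was found in 3 of the 4 members and in 13.6% of all windows. The word GATTNAATC, as bound by Dux-type homeodomains, was found in 0 of 4 members and in 0.3% of all windows, TNAAGGTCA in 0 of 4 and 1.3%, and TGCACAC, a word found in Zscan4 binding sites, in 0 of 4 and 4.4%.

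A common form of the m6A consensus, GGACT, was then counted on the transcript strand. In the first 1500 bases of the longest annotated transcript, 0 occurrences were found in each of the 5 members, and 0 were found in the whole transcripts. Of 16883 genes with such a window, 18.2% held none, and the median was 2. The shorter word GGAC, searched after this result was seen, occurred 5, 6, 5, 6 and 3 times in the window of Usp17la, Usp17lb, Usp17lc, Usp17ld and Usp17le, against a median of 7. These are counts of words and say nothing of whether a site is methylated.

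In stem cells, Usp17l RNA was lowest in wild type and highest in the triple knockout. The summed counts were 57 and 48 in wild type, 33 and 51 in Mettl3-/-, 82 and 77 in Ythdf2-/-, 135 and 157 in Ythdf3-/-, 455 and 466 in Ythdf1-/-, and 583 and 673 in the triple knockout. Scaled to depth, the family stood at 51.3 and 42.8 CPM in wild type, 54.2 and 59.7 CPM in Mettl3-/-, 106 and 89.6 CPM in Ythdf2-/-, 226 and 209 CPM in Ythdf3-/-, 505 and 509 CPM in Ythdf1-/-, and 909 and 921 CPM in the triple knockout. The 2 libraries of each genotype lay together, and no neighbouring genotypes in this order overlapped, although wild type and Mettl3-/- were separated by less than the gap between the 2 wild-type libraries. In these bulk samples, more cells in a state that makes Usp17l RNA and more of this RNA per cell cannot be told apart.

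**Figure D1:**
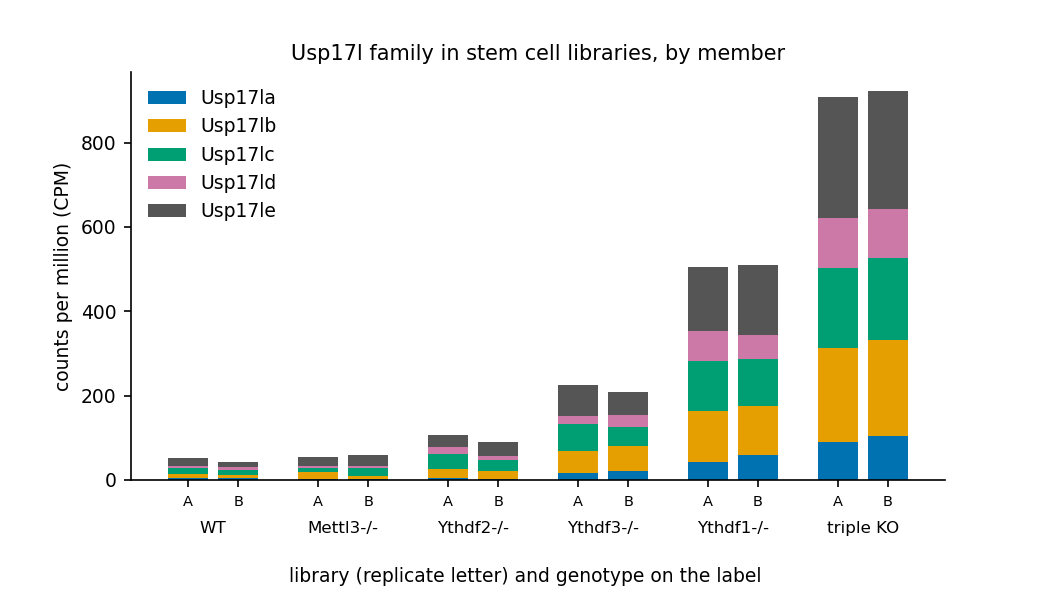
Stacked bars give the level of each Usp17l member in CPM (vertical axis) in each of the 12 stem cell libraries (horizontal axis, A and B of each genotype). The full bar is the family sum, from 42.8 CPM in wild type B to 921 CPM in triple knockout B.

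Relative to wild type, the family sum was 10.8-fold higher in Ythdf1-/- (log2 change 3.43 ± 0.10, SE, n = 2 against 2) and 19.4-fold higher in the triple knockout (4.28 ± 0.09). It was 4.59-fold higher in Ythdf3-/- (2.20 ± 0.13) and 2.07-fold higher in Ythdf2-/- (1.05 ± 0.15). In Mettl3-/-, which lacks the writer rather than a reader, the log2 difference was 0.29 ± 0.18. Ranked by log2 change among all genes tested, the family stood at 20 in Ythdf1-/-, 31 in Ythdf3-/-, 37 in the triple knockout, 103 in Ythdf2-/- and 2962 in Mettl3-/-. These 5 comparisons share the wild-type libraries, so their differences from wild type are not independent of each other.

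Usp17le had the most counts of the members in most libraries: 20 and 14 in wild type, 13 and 22 in Mettl3-/-, 22 and 29 in Ythdf2-/-, 44 and 41 in Ythdf3-/-, 137 and 152 in Ythdf1-/-, and 185 and 203 in the triple knockout. Usp17lb had 11 and 9, 10 and 6, 18 and 15, 31 and 45, 110 and 107, and 143 and 166 counts in the same order of genotypes. Usp17lc had 14 and 12, 7 and 15, 27 and 22, 39 and 34, 106 and 102, and 122 and 143 counts. All 3 were higher in both libraries of Ythdf1-/-, Ythdf2-/-, Ythdf3-/- and the triple knockout than in either wild-type library.

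Usp17ld, the closest relative of Usp17lc, had 6 and 8 counts in wild type, 2 and 5 in Mettl3-/-, 12 and 8 in Ythdf2-/-, 11 and 21 in Ythdf3-/-, 64 and 51 in Ythdf1-/-, and 75 and 85 in the triple knockout. Usp17la had the fewest counts, with 6 and 5, 1 and 3, 3 and 3, 10 and 16, 38 and 54, and 58 and 76 in that order. In CPM, all 5 members lay above both wild-type libraries in Ythdf1-/-, in Ythdf3-/- and in the triple knockout, where 25.3%, 25.5% and 33.7% of all tested genes did so. In Ythdf2-/-, 4 of 5 did (23.1% of all tested genes) and Usp17la lay below wild type. In Mettl3-/-, Usp17le lay above wild type, Usp17la below it and the other 3 members overlapped with it, and 33.8% of all tested genes lay above. Since the members were chosen on these contrasts, nothing is read from these shares.

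The size of the difference was much alike across members in the genotypes with many counts. In Ythdf1-/- the log2 changes were 3.32 ± 0.30 for Usp17la, 3.72 ± 0.20 for Usp17lb, 3.28 ± 0.19 for Usp17lc, 3.31 ± 0.27 for Usp17ld and 3.37 ± 0.16 for Usp17le. In the triple knockout they ran from 4.03 ± 0.18 (Usp17lc) to 4.63 ± 0.18 (Usp17lb). In Ythdf3-/- they ran from 1.89 ± 0.37 (Usp17ld) to 2.63 ± 0.26 (Usp17lb), so Usp17lb had the largest value in these 3 genotypes, by margins of the order of the standard errors.

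With fewer counts the members spread further. In Ythdf2-/- the log2 changes ran from -0.41 ± 0.60 (Usp17la) to 1.35 ± 0.28 (Usp17lc), and in Mettl3-/- from -0.82 ± 0.67 (Usp17la) to 0.65 ± 0.28 (Usp17le). The low values of Usp17la rest on 1 to 6 counts per library. The log2 CPM of any pair of members correlated with r of 0.946 to 0.984 over the 12 libraries, a description of points that share genotype, depth and, in part, reads.

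**Figure D2:**
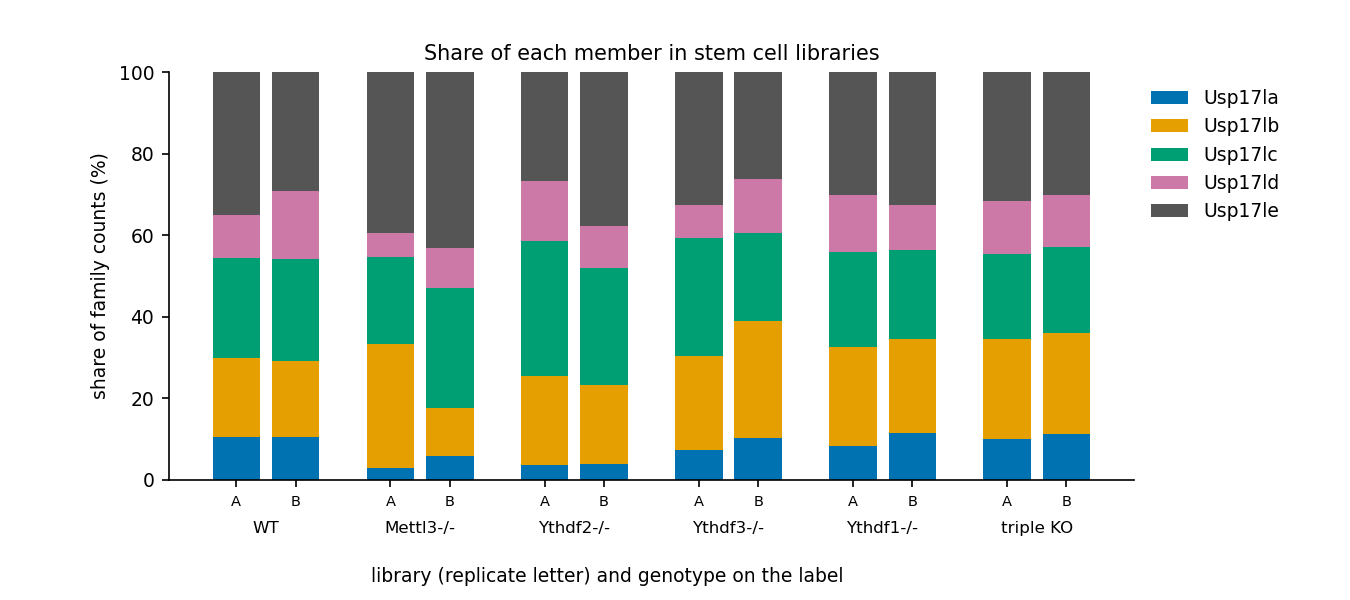
Stacked bars give the percentage of all Usp17l counts (vertical axis) that fell on each member in each of the 12 stem cell libraries (horizontal axis). Usp17le took 26.1% to 43.1% and Usp17la 3.03% to 11.6%.

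The make-up of the family varied within these ranges over the stem cell libraries. Usp17le took 26.1% to 43.1% of the family's counts (median 32.2%), Usp17lc 20.9% to 32.9% (23.9%), Usp17lb 11.8% to 30.3% (23.0%), Usp17ld 6.06% to 16.7% (11.8%) and Usp17la 3.03% to 11.6% (9.15%). Per kilobase of exon, wild-type levels were 7.67 ± 1.97 CPM (SD, n = 2) for Usp17le, 5.74 ± 0.85 for Usp17lb, 4.75 ± 0.55 for Usp17lc, 3.16 ± 0.62 for Usp17ld and 1.86 ± 0.25 for Usp17la. In the triple knockout the levels per kilobase were 144 ± 1.9 CPM for Usp17lb, 143 ± 3.8 for Usp17le, 78.7 ± 1.6 for Usp17lc, 58.7 ± 0.2 for Usp17ld and 36.6 ± 3.6 for Usp17la. On this scale Usp17lb and Usp17le did not differ beyond their spread, and Usp17la was the lowest member in both genotypes.

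The 8 genes outside the family whose log2 CPM followed the family sum most closely over the 12 stem cell libraries, out of 11839 genes ranked, were Gm11544 (r = 0.997), Gm4971 (0.991), Gm5662 (0.990), AF067061 (0.989), Zscan4f, Arg2 and AA792892 (0.983 each) and Gm13119 (0.982). Zscan4f is a zinc finger protein of the 2-cell embryo linked to telomere maintenance, and Arg2 is the mitochondrial arginase. Gm11544 had mean levels of 2.69 CPM in wild type, 3.40 in Mettl3-/-, 6.72 in Ythdf2-/-, 15.9 in Ythdf3-/-, 39.7 in Ythdf1-/- and 68.2 in the triple knockout, the same order of genotypes as the family. These r values describe 12 libraries of 6 genotypes, and the genes were picked for them.

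A list of 42 genes known from the 2-cell embryo, with no Usp17l gene in it, was taken as the setting of the family. Of its 30 members tested, 29 rose in Ythdf1-/- (1.95% of all tested genes were called up; edgeR adjusted p under 0.05) and all 30 in the triple knockout (13.3% of all). In Ythdf3-/- 17 rose (1.74% of all), in Ythdf2-/- 0 (0.837% of all; the family is described above at 2.07-fold), and in Mettl3-/- 1 rose and 1 fell (15.2% of all were called up). In Ythdf2-/- 8 list members were higher at an unadjusted p under 0.05. DESeq2 called 19 of the list up in Ythdf1-/- (0.379% of all genes it tested), 29 in the triple knockout (3.08%), 9 in Ythdf3-/- (0.171%), 0 in Ythdf2-/- (0.0357%) and 1 in Mettl3-/- (4.15%). The median log2 changes of the list were 2.89 in Ythdf1-/-, 4.11 in the triple knockout, 2.10 in Ythdf3-/-, 0.70 in Ythdf2-/- and 0.21 in Mettl3-/-. The list holds repeated families whose copies count as separate genes. Some members, such as Zscan4f with 2 and 1 counts in wild type, entered the test only through knockout libraries where they are high. The shares and medians above include them. Like the other gene lists here, it was chosen with earlier results of these data known, so these calls are a description and not a test.

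Summed over the list, the level was 146 and 119 CPM in wild type, 143 and 158 CPM in Mettl3-/-, 213 and 239 CPM in Ythdf2-/-, 542 and 530 CPM in Ythdf3-/-, 979 and 1006 CPM in Ythdf1-/- and 2165 and 2100 CPM in the triple knockout. Wild type and Mettl3-/- overlapped, and the other genotypes followed the order of the Usp17l family. Among its members in Ythdf1-/-, Tcstv1 rose by 4.07 ± 0.29 on the log2 scale and Gm8994 by 3.62 ± 0.27. In the triple knockout Zscan4d rose by 4.28 ± 0.22, the same size as the family sum, and Pramel6 by 4.76 ± 0.24. The part of such 2-cell-like cells in the Usp17l levels was not tested.

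**Figure D3:**
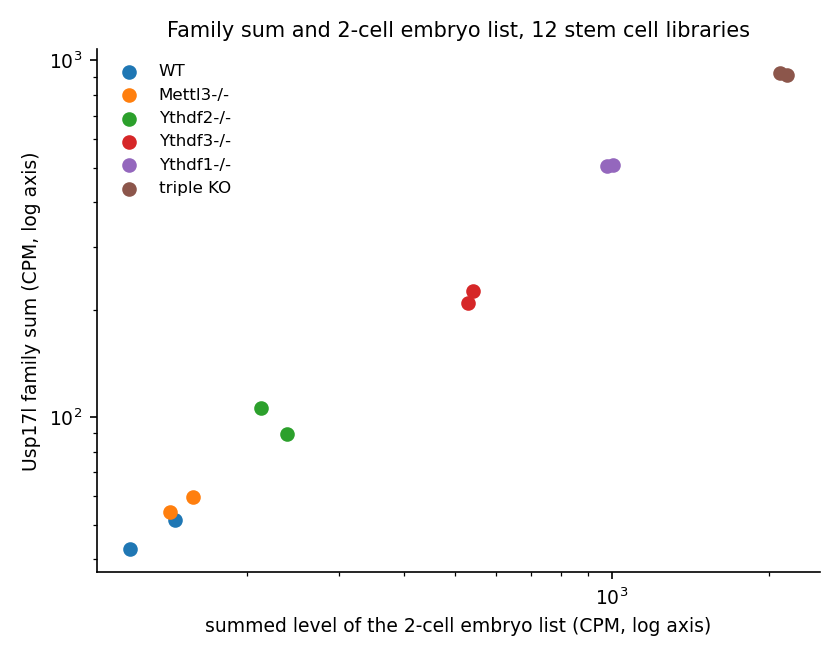
Each point is 1 library, with the summed CPM of the listed 2-cell embryo genes on the horizontal log axis and the Usp17l family sum in CPM on the vertical log axis. The stem cell libraries run from 119 and 42.8 CPM in wild type B to 2100 CPM or more and 909 CPM or more in the triple knockout.

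Known regulators of the 2-cell program were examined next. Of 4 tested activators of the 2-cell program, 2 rose in Ythdf1-/-, 1 in Ythdf2-/-, 0 in Ythdf3-/-, 3 in the triple knockout and 1 in Mettl3-/- (edgeR; 3 were higher in Ythdf3-/- at an unadjusted p under 0.05, and DESeq2 called 0 in Ythdf2-/- and in Ythdf3-/-). Dppa3, a maternal factor that guards methylated DNA in the zygote, rose by 1.85 in Ythdf1-/-, 1.02 in Ythdf2-/-, 2.10 in the triple knockout and 1.71 in Mettl3-/- on the log2 scale. Dppa3 thus rose in Mettl3-/-, where the Usp17l sum differed from wild type by 0.29 ± 0.18. Of 32 tested repressors of the program, 2 rose and 1 fell in Ythdf1-/-, 1 rose and 2 fell in Ythdf2-/-, 2 rose and 0 fell in Ythdf3-/-, 8 rose and 3 fell in the triple knockout and 6 rose and 5 fell in Mettl3-/-. Against these stand 3.45%, 1.91%, 2.84%, 25.1% and 30.4% of all tested genes called in either direction.

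Other ubiquitin-specific proteases were called at shares near or below those over all genes, given above, in each stem cell comparison. Of 42 tested members outside Usp17l, 0 rose and 2 fell in Ythdf1-/-: Usp7, which acts on p53 and Mdm2, had a log2 change of -0.99 and Usp27x one of -0.85 (3.45% of all tested genes were called). In Ythdf2-/- and in Ythdf3-/- edgeR and DESeq2 each called 0 (edgeR called 1.91% and 2.84% of all); at an unadjusted p under 0.05, 3 were higher and 4 lower in Ythdf2-/-, and 2 higher and 3 lower in Ythdf3-/-. In the triple knockout 7 rose and 1 fell (25.1% of all were called), with Usp26, an X-linked gene expressed in testis, up by 2.55 (edgeR adjusted p = 6.47e-09) and Usp7 at -1.54; DESeq2 called 1 up and 0 down there. In Mettl3-/- 7 rose and 4 fell (30.4% of all were called), among them Usp42 up by 1.02, Usp10 up by 0.89 and Usp48 at -0.76, where DESeq2 called 2 up and 1 down.

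Proteins reported as targets of the family or its human counterpart had small RNA changes. Of 7 tested, H2afx, the histone variant marked at DNA breaks, rose by 0.33 in Ythdf1-/-, 0.35 in Ythdf2-/- and 0.29 in the triple knockout and had a log2 change of -0.61 in Mettl3-/-. Esrrb, a pluripotency factor, had a log2 change of -0.22 in the triple knockout. These 7 were called in either direction 1, 1, 0, 3 and 2 times in Ythdf1-/-, Ythdf2-/-, Ythdf3-/-, the triple knockout and Mettl3-/- by edgeR, against 3.45%, 1.91%, 2.84%, 25.1% and 30.4% of all tested genes. DESeq2 called 0 of them up in any of these comparisons, and 1 down, in Mettl3-/-. Nothing is read from so few genes.

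The measured genes nearest to the members on chromosome 7 were also examined. In stem cells they lay 414.7 to 1047.4 kb from a member, so genes directly beside the family were not measured. Of the 81 other coding genes between the outermost members, 5 had a row there. Of 12 measured neighbours, up to 3 on each side of a member, 9 were tested, and edgeR called 0 of them up in each reader knockout; of all tested genes it called up 1.95% in Ythdf1-/-, 0.837% in Ythdf2-/-, 1.74% in Ythdf3-/- and 13.3% in the triple knockout, so few or none would be called among 9. In the triple knockout 2 fell, Trim12a with a log2 change of -0.89 (edgeR adjusted p = 0.00104) and Rrm1, a subunit of ribonucleotide reductase, with -0.62 (0.0408). Across these neighbours the log2 changes lay between -0.89 and 0.81 in the triple knockout and between -0.65 and 0.28 in Ythdf1-/-, where 0 rose and Trim12a fell (edgeR adjusted p = 0.0377). Trim12a also fell in Ythdf3-/- (-0.84 ± 0.19, edgeR adjusted p = 0.0147). In Mettl3-/- 1 rose and 2 fell, where 15.2% of all tested genes were called up and 15.1% down. Of all tested genes edgeR called down 1.5% in Ythdf1-/-, 1.1% in Ythdf3-/- and 11.8% in the triple knockout. With 9 genes tested, nothing is read from these counts.

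In GV oocytes, Usp17l RNA was near 0 in controls and present in every Mettl3 conditional knockout library. The family count was 1120, 335 and 425 in the 3 knockout libraries and 17, 0, 7 and 29 in the 4 controls. This gave 62.6, 21.5 and 63.8 CPM against 1.18, 0, 0.735 and 2.71 CPM, or 49.3 ± 24.1 CPM (SD, n = 3) against 1.16 ± 1.15 CPM (n = 4), and the groups did not overlap. A count of 0 in control 2 allows up to 0.367 CPM, for counting error only. The log2 change was 5.36 ± 0.79. A two-sided exact permutation test over libraries, with no filter, gave p = 0.0286, the smallest that the 35 assignments allow. The edgeR fit gave an adjusted p of 0.00165 and DESeq2 one of 1.98e-05. For edgeR the sum passed the filter on low counts only through the knockouts, where it is high, so this p is not used as support. Without control 4, the control with the most Usp17l counts, the log2 change was 6.13. Of all tested genes in this comparison 28.8% were called, 15.4% upward.

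**Figure D4:**
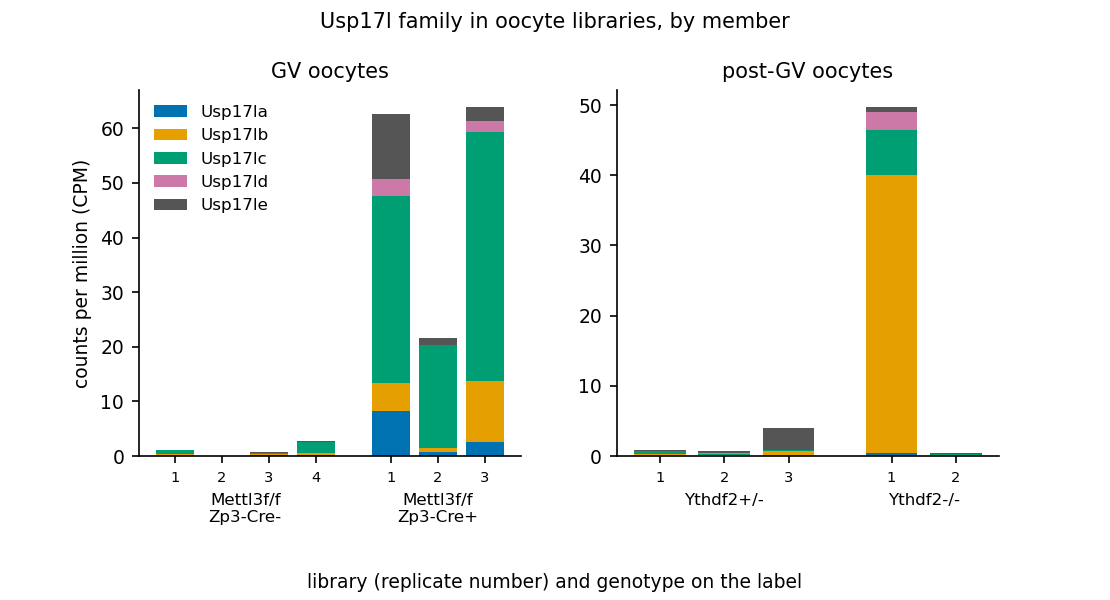
Stacked bars give the level of each Usp17l member in CPM (vertical axis) in each library of GV oocytes (left panel) and post-GV oocytes (right panel). The 3 Mettl3 knockout GV libraries stand at 21.5 to 63.8 CPM against 0 to 2.71 CPM in controls, and of the post-GV libraries Ythdf2-/- 1 alone stands high.

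Each member was higher in all 3 GV knockout libraries than in any control (5 of 5). Of all tested genes 21% were so, but 3 of the members were not among the tested genes, and for Usp17ld the separation rests on 1 count in knockout 2. Usp17lc, the older Dub2, made up most of the RNA: it had 611, 291 and 303 counts in the knockouts and 10, 0, 2 and 21 in the controls, which is 54.6%, 86.9% and 71.3% of the family's counts in the knockouts. Its log2 change was 5.44 ± 0.82 (SE). Usp17le had 211, 19 and 17 counts against 1, 0, 1 and 2, a log2 change of 5.66 ± 1.00. These were the 2 members that passed the filter on low counts alone. They passed through the knockout group, where they are high, so no p is given for them. The family sum also needed the knockouts to pass, since 2 of the 4 controls reached the filter's level where 3 libraries were needed; the exact permutation test above used no filter.

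The other 3 members were too low in this table to be tested singly. Usp17lb had 94, 14 and 75 counts in the knockouts against 6, 0, 2 and 4 in the controls. Usp17la had 146, 10 and 17 against 0, 0, 2 and 2. Usp17ld had 58, 1 and 13 against 0 in all 4 controls. Its knockout mean of 1.75 CPM was 25-fold a floor of 3 counts over the control group (0.0701 CPM). This leaves out the spread of the knockouts, and knockout 2 (0.0643 CPM) lay below the floor. Knockout 1 held most of the counts of Usp17la, Usp17ld and Usp17le, and knockout 2 had the fewest counts of each member other than Usp17le.

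Per kilobase of exon, the GV knockouts had 13.4 ± 5.5 CPM (SD, n = 3) of Usp17lc, 3.72 ± 3.33 of Usp17lb, 2.61 ± 2.90 of Usp17le, 1.43 ± 1.47 of Usp17la and 0.88 ± 0.80 of Usp17ld. In triple knockout stem cells, prepared with another kit and sequenced less deeply, Usp17lb and Usp17le led instead; the difference in make-up between these experiments was not tested. In the authors' deposited table for GV oocytes, the log2 changes were 5.39 for Usp17lc (adjusted p = 0.0661), 5.73 for Usp17le (0.382), 5.22 for Usp17la (0.562), 4.38 for Usp17lb (0.490) and 6.57 for Usp17ld (0.697), so none passed 0.05 there, where 212 of 16598 rows did. The authors' unadjusted p-values beside them were 8.61e-14, 3.07e-07, 1.39e-05, 3.30e-06 and 0.000144 in the same order. Adjustment over the 16598 rows alone would leave Usp17lc far under 0.05. How the deposited adjusted values were obtained is not known here, so nothing is read from them.

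RNA of granulosa cells, which surround the oocyte, also differed between the GV groups. The summed granulosa markers stood at 227, 501, 1198 and 232 CPM in the controls and 11.9, 146 and 26.1 CPM in the knockouts. Of 6 tested markers 5 fell, where 13.4% of all tested genes were called down. Cyp19a1 had a log2 change of -3.57 (edgeR adjusted p = 0.000251). The oocyte markers summed to 13773 to 26220 CPM in controls and 18752 to 25472 CPM in knockouts. With the granulosa level as a covariate, chosen after seeing the data, the family's log2 change was 3.51 ± 0.89 and no longer passed (edgeR adjusted p = 0.0592). The Mettl3 target itself was 3.47, 1.35 and 0.901 CPM in knockouts against 13.2 to 41.7 CPM in controls.

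Some of the 8 genes that followed the family in stem cells were also higher in the GV knockouts. Gm5662 had 27, 30 and 40 counts in the knockouts against 1, 0, 0 and 0 in the controls (log2 change 6.54 ± 0.99). AF067061 had 25, 16 and 75 against 11, 4, 3 and 8 (2.89 ± 0.87). Both passed the filter on low counts only through the knockouts, where they are high, so no p is given for them. Gm13119 had 23, 11 and 39 counts against 0, 2, 3 and 8. Gm4971 and Gm11544 had counts in knockout 3 alone, 23 and 6. AA792892 overlapped, with 3, 8 and 7 counts against 10, 3, 3 and 4. Arg2 had 2155, 2277 and 189 counts against 7808, 2309, 1288 and 3372, a log2 change of -1.69 ± 0.57 that did not pass (edgeR adjusted p = 0.0514). Of the 2-cell embryo list 6 rose and 1 fell among 14 tested, where 15.4% of all tested genes were called up and 13.4% down. The 6 hold Gm5662 and AF067061, which entered the test through the knockouts. The median log2 change of the list was 1.98 against 0.04 over all genes, but it includes these 2 genes, so nothing is read from it. Summed over the 24 listed genes with a row, the level was 1055, 722, 463 and 837 CPM in the controls. It was 559, 635 and 812 CPM in the knockouts, so the groups overlapped. Tcstv1, which rose with the family in stem cells, was the member that fell (-1.80 ± 0.30, edgeR adjusted p = 0.00280).

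Among the other lists in GV oocytes, 2 of 4 tested activators rose, Dppa3 and Dppa4, by 1.22 and 1.52 on the log2 scale. DESeq2 called 2 activators up and 1 down. Of 33 tested repressors 4 rose and 2 fell. Of 48 other ubiquitin-specific proteases 3 rose and 7 fell, with Usp3 at -1.67 and Usp11 at -1.63 (DESeq2 called 4 up and 13 down). By edgeR, the shares of the repressors and proteases lay below the 28.8% of all tested genes called in this comparison. That of the activators lay above it, with only 4 tested. DESeq2 called 32.9% of all genes it tested, and its share of the proteases was near that. Of the 7 reported targets tested, edgeR called 1, Snai1, where 28.8% of all tested genes were called, so nothing is read from it. Snai1, a transcription factor of epithelial-mesenchymal transition, rose by 2.64 ± 0.56 (edgeR adjusted p = 0.00812). Of 5 tested neighbours on chromosome 7, 1 was called up, where 15.4% of all tested genes were, so nothing is read from it. It was the olfactory receptor Olfr666, with 32, 43 and 17 counts against 6, 3, 2 and 10 (2.25 ± 0.59). Olfr666 passed the filter on low counts through the knockouts, so no p is given for it.

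In post-GV oocytes, 1 of the 2 Ythdf2-/- libraries held nearly all of the Usp17l RNA. The family count was 830 and 6 in the knockouts and 24, 10 and 78 in the controls, or 49.7 and 0.465 CPM against 0.879, 0.682 and 3.97 CPM. Knockout 2 was the lowest of the 5 libraries and knockout 1 the highest, so the groups overlapped, for the sum and for each of the 5 members (14.2% of all tested genes were higher in both knockouts than in every control). The log2 change of 3.76 ± 1.62 did not pass (edgeR adjusted p = 0.848), and the two-sided exact permutation test gave p = 0.4, where 0.1 is the smallest that 10 assignments allow. Without knockout 1, the log2 change was -1.98. In this comparison edgeR called 0 of 13910 genes (0%), 782 had an unadjusted p under 0.05, and DESeq2 called 94 (0.639%).

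The members in post-GV oocytes did not keep a common make-up. Usp17lb had 664 counts in knockout 1, 80.0% of the family there, against 2 in knockout 2 and 6, 3 and 13 in the controls. Usp17lc had 106 and 2 against 12, 2 and 3, and Usp17ld 44 and 0 against 0, 1 and 1. Usp17la had 6 and 0 against 0 in all 3 controls. Its knockout mean was 3.69-fold a floor of 3 counts over the control group, and rests on knockout 1 alone. Usp17le went the other way, with 10 and 2 counts against 6, 4 and 61, and made up 78.2% of the family in control 3. It was the only member tested alone (log2 change -1.63 ± 1.5, edgeR adjusted p = 0.848). In the authors' deposited table for post-GV oocytes, no member had an adjusted p under 0.05, the lowest being 0.154 for Usp17lc.

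Knockout 1 also stood apart in some other genes of the 2-cell embryo. Of the 26 listed genes in this table, 10 had at least 10 counts in knockout 1 and at most 1 in each other library. This rule was set after the values were seen, and the share of all rows that meet it was not counted. It held 783 counts of Pramel7, 240 of Gm5662, 109 of Pramel6, 84 of Spz1, 70 of Zfp352 and 24 of AF067061, where each other library held 0 or 1 of each. Other listed genes did not follow: Zscan4c had 0 counts in both knockouts against 6, 2 and 33 in controls, and Zscan4d 11 and 10 against 25, 3 and 115. Tmem92 had 1 and 1 against 20, 3 and 14, and Arg2, AA792892, Cml2 and Sp110 lay within the range of the controls in knockout 1. In all, 25 of the 26 were detected in knockout 1 and 15 or 16 in each other library. Of all 16304 rows, 15956 were detected in knockout 1 and 14803 to 15886 in the other libraries. In knockout 1 the share of the list detected was thus near that of all rows. In each other library it lay below that of all rows. Of the genes that followed the family in stem cells, Gm11544 had 631 counts in knockout 1 and 0 to 8 elsewhere. In the deposited batch-adjusted columns, knockout 1 and controls 1 and 2 were moved together, as were knockout 2 and control 3. Within these sets the family stood at 49.7 against 0.879 and 0.682 CPM in the first and at 0.465 against 3.97 CPM in the second, opposite directions. Ythdf2 RNA was not lower in the knockouts (197 and 156 CPM against 90.1, 73.2 and 132 CPM). The neighbour Trim6 had 364 and 301 counts in the knockouts against 26, 22 and 16 in controls (log2 change 4.37 ± 0.58, edgeR adjusted p = 0.512).

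For round spermatids the family has no value here. Each row listed in that table reached at least 6 counts in some library, and no member was among the 17715 rows. Ythdf2 RNA did not check the labels here: it stood at 29.9 and 27.9 CPM in the libraries labelled Ythdf2-/- and at 29.2 CPM in wild type. The control arm is 1 library, so a call takes its spread from the 2 knockout libraries. Of 47 other ubiquitin-specific proteases tested there, edgeR called 0 up and 1 down, Usp19 at -0.92, where 4.9% of all tested genes were called, and DESeq2 called 0. Of the 2-cell embryo list edgeR and DESeq2 called 0 of 7 tested members, of which 1 was higher at an unadjusted p under 0.05.

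**Figure D5:**
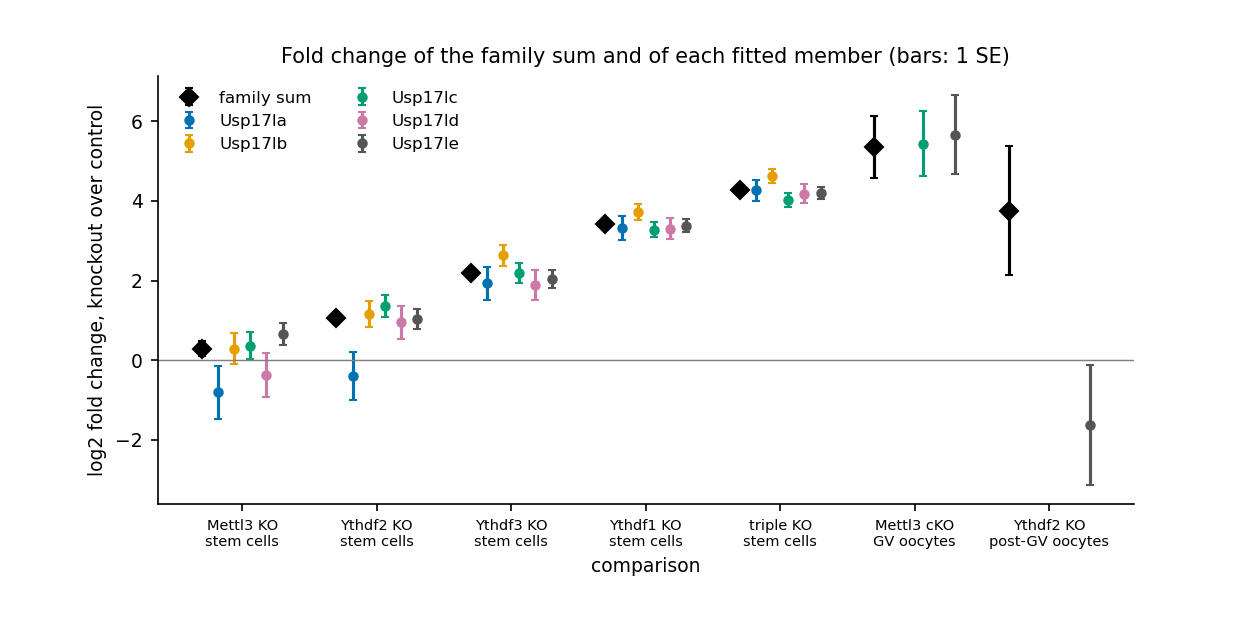
Points give the log2 change against the control group (vertical axis) for the family sum and each tested member in the 5 stem cell and 2 oocyte comparisons (horizontal axis), with bars for the standard error. The family sum runs from 0.29 in Mettl3-/- to 4.28 in the triple knockout among stem cells, and stands at 5.36 in GV oocytes and 3.76 with a wide error in post-GV oocytes.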

How the data were processed

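RNA-seq was deposited as 4 tables, for stem cells, GV oocytes, post-GV oocytes and round spermatids. Whole-number read counts per gene were taken from the columns that the file headers mark as raw, as deposited by the authors. The deposited tables also give the authors' log2 fold changes and p-values, copied for the members, and log2-type batch-adjusted columns per the file headers, used only to see which libraries were moved together. Per the submitters' processing notes, CASAVA 1.8.2, cutadapt, STAR 2.4.2a, DESeq2 and the mm10 genome were named; for the read counter and gene annotation, nothing is stated there.

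The members and gene lists were chosen with earlier results of these data known. Counts were scaled by TMM, filtered with filterByExpr and fitted per table with edgeR 4.0.16 (quasi-likelihood, robust; limma 3.58.1, R 4.3.3), with the 5 members replaced by their sum or kept singly. This left 11951, 13551, 13910 and 16031 tested genes in the 4 tables. P-values were Benjamini-Hochberg adjusted over all tested genes, with a threshold of 0.05. A standard error is the log2 change divided by the square root of F. Exact permutation tests were two-sided over libraries. DESeq2 1.42.0, other filters and scalings, a replicate block and leaving out each library were alternatives. The labels do not tie all replicates to separate cultures or animals, so p-values measure the spread between these samples. The precision of low genes is set by total counts, lowest in stem cells. The fits were tested on simulated data.

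Named genes are the 5 members and their sum, the 4 targeted genes, the 8 genes with the highest Pearson r of log2 CPM (prior count 2) with the sum over the 12 stem cell libraries at a mean log2 CPM of at least 3, up to 3 measured neighbours a side of each member, and from each list up to 4 members with the smallest p in each comparison. Genes named outside it, such as those high in post-GV knockout 1, were chosen after their values were seen. The values of 1 listed gene are not reported here. Positions come from GENCODE M21 and promoters from RefSeq, both on the same build as the files.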

Additional observations from a re-analysis of the deposited data

Results flagged for a closer look

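Of 21 quantities examined over the 4 GV control libraries, 1 had a library far from the others by Dixon's ratio test at the 95% level. Gm5662 stood at 0.0694 CPM in control 1, which is 1 count, and at 0 in the other 3. With 0 in 3 libraries the ratio is 1 whatever the fourth holds, so 1 count fixed this outcome and nothing is read from it. The rate of about 1 in 20 groups by chance does not hold for counts at 0. Groups of fewer than 4 libraries were not examined.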

How the results depend on the processing

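Most values of the family kept their direction and side of the threshold under other scalings, filters, DESeq2 and leaving out each library. In Mettl3-/- stem cells the log2 change was 0.020 as the mean of the members and 0.074 without Usp17le. With the granulosa level as a covariate, added after seeing the data, the GV family log2 change was 3.51 (adjusted p = 0.0592). In post-GV oocytes the sign turned when the mean of tested members, which is Usp17le alone, was used (-1.63), when knockout 1 was left out (-1.98), and for Usp17le with a replicate block (0.47). With each library left out in turn, the family log2 change was 4.98 to 6.13 in GV and -1.98 to 4.99 in post-GV oocytes.

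The replicate numbers are shared between groups but were not treated as pairing: same-numbered libraries deviated together with r of 0.417, 0.0919 and 0.245 in GV oocytes. With the replicate block the family log2 changes were 3.43, 1.05, 2.20, 4.28 and 0.29 in Ythdf1-/-, Ythdf2-/-, Ythdf3-/-, triple and Mettl3-/- stem cells, 6.33 in GV oocytes (adjusted p = 0.000153) and 2.91 in post-GV oocytes (adjusted p = 0.731). With the sets of the deposited batch-adjusted columns as a batch term, added after seeing the data, the post-GV value was 3.76 ± 3.48 (adjusted p = 0.691). A filter at 5 CPM gave no post-GV family value, and no batch is named by the labels.

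The number of genes called depended more on the tool. DESeq2 called 52 against 412 by edgeR in Ythdf1-/-, 10 against 228 in Ythdf2-/-, 25 against 340 in Ythdf3-/-, 684 against 2996 in the triple knockout, 1156 against 3630 in Mettl3-/-, 94 against 0 in post-GV oocytes and 394 against 785 in spermatids. Leaving out 1 library gave 193 to 237, 54 to 123 and 112 to 200 in the single reader knockouts, 1799 and 1809 without a triple knockout library, 2319 without Mettl3-/- B, and 2254, 2581 and 2424 against 3907 without GV knockout 1, knockout 2 and control 2. The batch term gave 258 and the block 3 in post-GV oocytes, and a filter at 5 CPM gave 341 in spermatids and left 1 listed 2-cell gene called up in GV oocytes against 6. Without Ythdf3-/- B, 11 listed 2-cell genes rose there against 17.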
